A study of Mus musculus with 12 samples.

Results

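The collagen genes of the mouse were followed in dissected CA1 tissue of the hippocampus, with 6 libraries after myocardial infarction (MI), set off by tying a coronary artery, and 6 after an operation in which no artery was tied (Sham). A gene was included when it was protein-coding, its symbol had the form Col, number, a, number, and its mean was at least 10 counts over the 12 libraries. This left 42 genes of 44 with such a symbol and of 48709 gene IDs in all: 11 fibrillar, 8 of basement membranes and 23 others. Col9a1 with a mean of 15.8 counts and Col4a3 with 16.2 stood just inside the limit, and Col17a1 with 5.42 and Col10a1 with 2.83 just outside it. The genotype, strain, age and sex of the mice and the time between surgery and dissection are not given in the sources used here, nor whether the libraries stand for separate animals. The p-values therefore measure the spread between these libraries, which may be technical in part. Each group held libraries of both sex-linked sets described below, so neither group came from a single animal.

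Collagens are secreted or membrane-bound proteins whose chains wind into triple helices of repeated glycine-led triplets. Fibrillar chains form the cables of connective tissue, which in the brain lie mainly in the meninges and around larger vessels. Type IV chains form the sheet-like network of the basement membrane under endothelium, and smaller families bind fibrils, form beaded filaments or sit in the cell membrane, some of them in neurons.

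Library totals ran from 20764133 to 35643127 counts. Xist, the RNA that coats the inactive X, had fewer counts than 4 Y-linked genes together in Sham 1 to Sham 3 and in MI 1, MI 3 and MI 4, called the Y set here, and more in the other 6 libraries, the Xist set. Each set thus held 3 libraries of each group. Sham 1 and Sham 6 stood apart from the rest: of 16829 genes tested, 17.2% had their highest level in Sham 1 and 17.5% in Sham 6. Markers of CA1 pyramidal neurons were detected in every library, with a summed level of 1434 to 1813 CPM (counts scaled to a common library size) in MI and 926.8 to 2186 in Sham, lowest in Sham 1. Dentate granule cell markers, of the neighbouring field, reached 1093 CPM in Sham 6 and 125.0 to 449.9 in the other 11 libraries. All 12 of 12 myelin markers had a log2 fold change above 0 (median 0.50), and their summed level was 5345 to 6736 CPM in MI and 2907 to 5900 in Sham.

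No collagen gene passed the test between MI and Sham. By the quasi-likelihood test of edgeR, 0 of the 42 genes stood below an adjusted p of 0.05, against a background of 0.0% of 16829 genes, and the smallest adjusted p among them was 0.614. Below an unadjusted p of 0.05 stood 6, or 2 higher and 4 lower in MI, beside 7.55% of all genes tested. DESeq2 gave 0 at an adjusted and 8 at an unadjusted p under 0.05, beside 0.0606% and 7.76% of all genes with such a p. Negative log2 fold changes (MI minus Sham) were found in 25 of 42, beside 52.4% of all genes, and the median was -0.15 beside -0.01. In 0 of 42 did the levels of MI and Sham not overlap, a separation seen in 0.41% of all genes. The standard error of the log2 fold change had a median of 0.21 over the collagen genes and 0.09 over all genes. Low counts also widen this error, and genes of similar level were not compared.

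**Figure D1:**
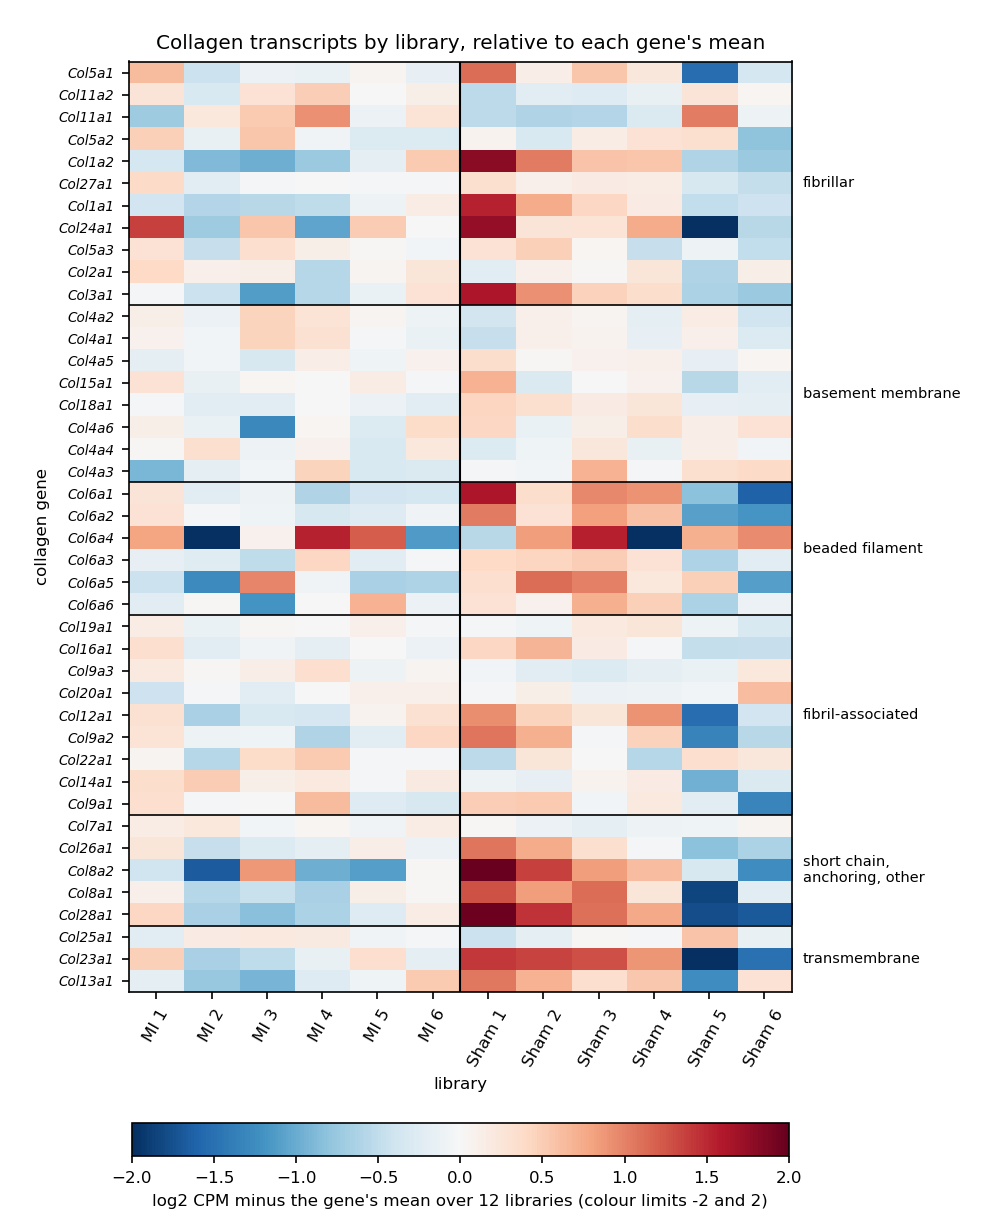
Level of each of the 42 collagen genes (rows, by family) in each of the 12 libraries (columns), as log2 CPM minus the mean of that gene, with colour limits of -2 and 2. No prior count was used. Sham 1 holds the highest level of 19 genes and Sham 5 the lowest of 14.

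Many of the collagens had their highest or lowest level in the same few Sham libraries. Sham 1 held the highest level of 19 of the 42 genes (45.2%, beside 17.2% of all genes), and Sham 5 the lowest of 14 (33.3%, beside 11.1%). Sham 6 held the lowest of 8 (19%), near its share of all genes (17.4%). The summed level of the 42 genes was 887.8 CPM in Sham 1 and 538.5 in Sham 6, and the MI libraries lay between them at 611.7 to 762.6. In 16 genes the highest library was more than 4 times the lowest, and in 6 it was less than 1.6 times. The steadiest were Col7a1, of the anchoring fibrils that fasten epithelia, at 6.57 to 8.70 CPM, and Col19a1, a fibril-associated chain made by interneurons, at 26.6 to 38.5 CPM.

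Among the fibrillar collagens the chains of types I and III were lower in MI than in Sham 1 to Sham 4 and similar to Sham 5 and Sham 6. MI 6 came close to Sham 4, with 9.48 against 9.58 CPM for Col1a1, 14.97 against 15.24 for Col1a2 and 2.81 against 2.93 for Col3a1. Col1a1 (ENSMUSG00000001506, chromosome 11, 94936224 to 94953042, mm10) and Col1a2 (ENSMUSG00000029661, chromosome 6, 4504814 to 4541544) encode the chains of type I, the main fibril of connective tissue, and Col3a1 (ENSMUSG00000026043, chromosome 1, 45311538 to 45349706) the chain of type III, its partner in elastic tissue. Col1a1 had 5.70, 6.28 and 9.48 CPM in MI (lowest, median and highest of 6) and 6.04, 10.5 and 24.8 in Sham, with Sham 1 at the top. Its log2 fold change was -0.79 (SE 0.31) with an adjusted p of 0.614 by edgeR and an unadjusted p of 0.0252.

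Col1a2 had 5.31, 7.17 and 14.97 CPM in MI and 6.21, 15.3 and 36.2 in Sham, a log2 fold change of -1.02 (SE 0.41, edgeR adjusted p 0.624, unadjusted p 0.0290). Its order of libraries was close to that of Col1a1, with Sham 1 and Sham 2 highest and MI 6 the highest of the MI libraries. Col3a1 had 1.053, 1.89 and 2.81 CPM in MI and 1.36, 3.05 and 7.06 in Sham, with a log2 fold change of -0.81 (SE 0.38, edgeR adjusted p 0.669). In each of the 3 genes 0 of 6 MI libraries exceeded the Sham median, and Sham 5 and Sham 6 lay within the MI range. Without Sham 1 the log2 fold changes were -0.46 for Col1a1, -0.65 for Col1a2 and -0.46 for Col3a1, with unadjusted p of 0.0690, 0.0997 and 0.171 by edgeR.

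The levels of types I and III moved with markers of meningeal fibroblasts that are not collagens, such as Ogn, Islr and Foxc1. The log2 fold change was negative for 13 of 13 markers of that list (median -0.88), and none was at 0. All 13 had their highest level in Sham 1. Their summed level was 48.0 to 165.3 CPM in MI, highest in MI 6, and 58.0 to 375.3 in Sham, highest in Sham 1 and lowest in Sham 5. The mean deviation of Col1a1, Col1a2 and Col3a1 from their 12-library means was 1.65 log2 units in Sham 1, 0.90 in Sham 2 and -0.64 in Sham 6. That of the meningeal list was 1.89, 1.14 and -0.69. The list values used log2 CPM with a prior count of 2 and the collagen values none, so the scales are not the same. Pericyte and smooth muscle markers had a median of 0.01 with summed levels of 271.5 to 308.3 CPM in MI and 274.6 to 310.0 in Sham. Median log2 fold changes of the remaining marker lists were 0.16 for CA1 pyramidal neurons, -0.50 for dentate granule cells, 0.10 for interneurons, 0.14 for choroid plexus and 0.02 for microglia, and within 0.01 of 0 for astrocytes and oligodendrocyte precursors. The dentate list was also negative in 10 of 10 genes, and all 10 had their highest level in Sham 6. Its median summed level was 285.8 CPM in MI and 244.6 in Sham. The part of meningeal tissue in the collagen values was not tested. In bulk tissue fewer cells of a type and less RNA per cell cannot be told apart.

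**Figure D2:**
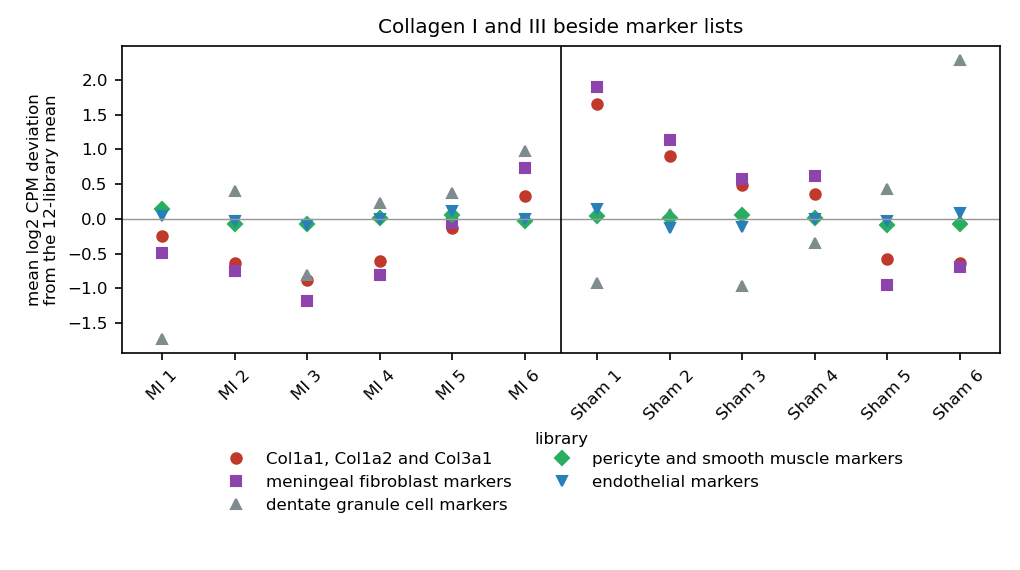
Mean deviation of log2 CPM from the 12-library mean (vertical axis) in each library (horizontal axis), for Col1a1, Col1a2 and Col3a1 together and for 4 marker lists without collagens. A prior count of 2 was used for the lists and none for the collagens. The collagens and the meningeal fibroblast list are highest in Sham 1, at 1.65 and 1.89, while pericyte and endothelial lists stay near 0.

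Types I and III were also compared within each sex-linked set. In the Y set, 3 MI against 3 Sham, the log2 fold changes were -1.46 for Col1a1, -1.90 for Col1a2 and -1.59 for Col3a1. None passed there, with adjusted p of 0.0705, 0.0551 and 0.0964 by edgeR. In the Xist set, whose Sham side was Sham 4 to Sham 6, they were 0.08, 0.08 and 0.19. The difference between the sets had an unadjusted p of 0.00364, 0.0117 and 0.00766 and an adjusted p of 0.398, 0.503 and 0.447 by edgeR's interaction test, so it did not pass over all genes. Over the 42 genes, 9 had an interaction p under 0.05 unadjusted, beside 8.24% of all genes, and 0 adjusted, beside 0.0119%. For the meningeal list, the mean deviation in MI less that in Sham came to -2.03 (Y set) and 0.31 (Xist set).

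**Figure D3:**
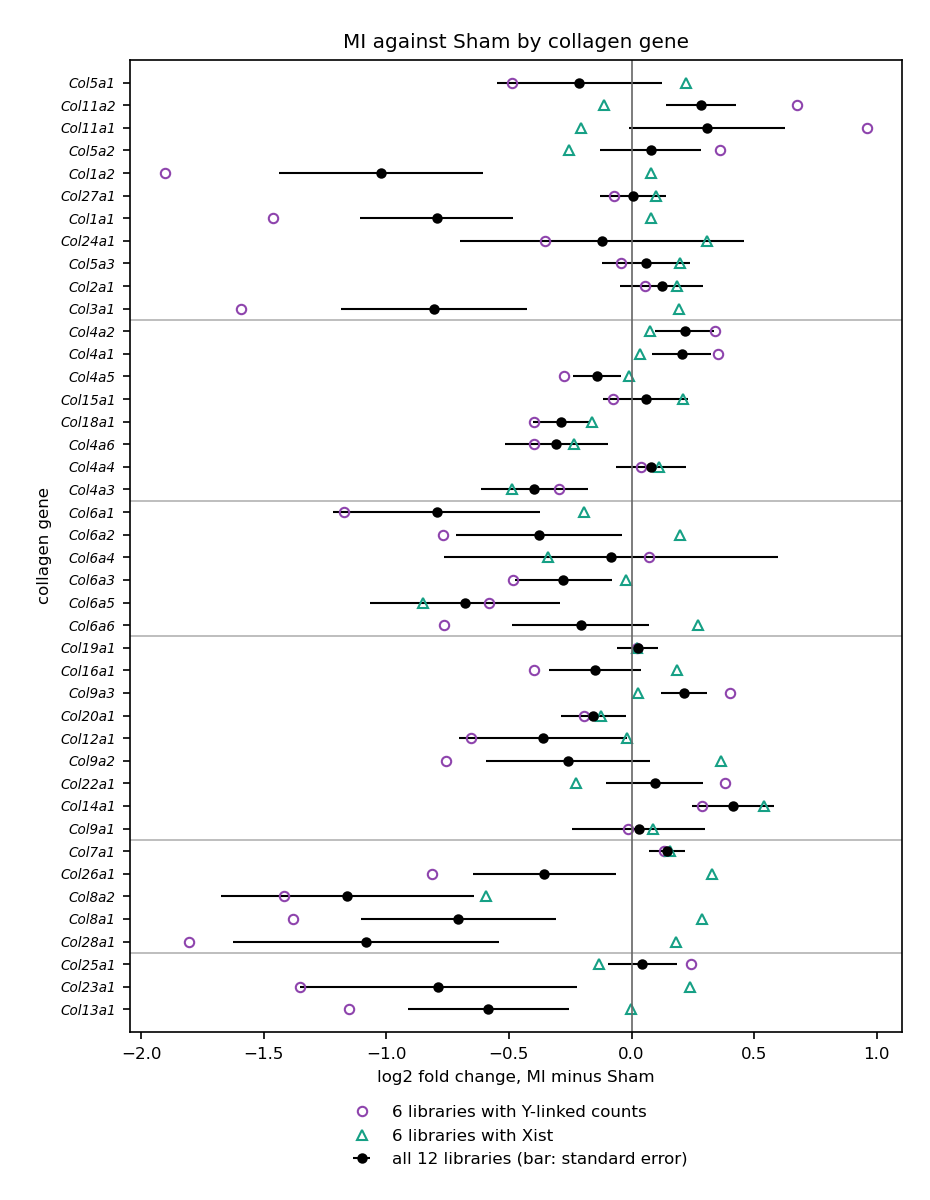
Log2 fold change, MI minus Sham (horizontal axis), of each collagen gene (vertical axis, by family). Black points are all 12 libraries with the standard error, open circles the Y set and triangles the Xist set; Col1a2 stands at -1.02, -1.90 and 0.08.

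Type V and XI chains set the width of fibrils by forming their core. Of the fibrillar class Col11a2 and Col5a1 had the highest levels per length, 6.30 and 5.65 RPKM (CPM per kilobase of exon), while the type V chain Col5a3 had 0.638. Col5a1 (chromosome 2) had 32.4, 40.3 and 68.4 CPM in MI and 15.2, 49.9 and 95.4 in Sham, with Sham 1 highest and Sham 5 lowest, and a log2 fold change of -0.21 (SE 0.34). Col11a2 (chromosome 17) had 34.5, 48.4 and 59.98 CPM in MI and 29.6, 37.4 and 50.6 in Sham, lowest in Sham 1, and a difference of 0.28 (SE 0.14, edgeR adjusted p 0.690). Col11a1 (chromosome 3) had 14.5, 28.1 and 44.8 CPM in MI and 15.7, 17.9 and 48.5 in Sham, with 0.31 (SE 0.32); Sham 5 at 48.5 CPM was far above the other Sham libraries, none of which exceeded 22.0. Both type XI genes were thus lower in Sham 1 to Sham 4 than in Sham 5, opposite to Col1a1 and Col1a2.

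In the Y set alone, Col11a2 passed the test with a log2 fold change of 0.68 (edgeR adjusted p 0.0281), while in the Xist set it had -0.11. Its interaction p was 0.000978 unadjusted and 0.305 adjusted by edgeR. Col11a1 had 0.96 in the Y set and -0.21 in the Xist set. The upstream sequences of Col3a1 and Col11a2 are shown because these fibrillar genes had opposite ends in the Sham libraries, Col3a1 highest and Col11a2 lowest in Sham 1. Both are RefSeq windows of the 250 bases before the start site on GRCm38.p6, the assembly of mm10, on the plus strand and outside annotated exons, at chr1:45311288-45311537 and chr17:34038888-34039137. Capitals mark TATAAA and the GC box GGGCGG or its reverse CCGCCC.
Col3a1: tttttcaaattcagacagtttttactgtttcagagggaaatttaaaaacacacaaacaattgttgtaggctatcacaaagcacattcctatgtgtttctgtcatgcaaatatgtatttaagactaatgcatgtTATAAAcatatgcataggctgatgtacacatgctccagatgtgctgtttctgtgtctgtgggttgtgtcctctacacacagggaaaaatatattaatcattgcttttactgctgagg
Col11a2: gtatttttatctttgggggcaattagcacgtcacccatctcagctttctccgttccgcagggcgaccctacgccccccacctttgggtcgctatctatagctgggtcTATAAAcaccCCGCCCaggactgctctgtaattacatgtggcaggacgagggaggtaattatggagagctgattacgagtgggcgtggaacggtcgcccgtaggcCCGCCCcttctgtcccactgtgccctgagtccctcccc

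The Col3a1 window held 1 TATAAA and no GC box, and the Col11a2 window 1 TATAAA and 2 GC boxes. Searched on both strands, GGGCGG stood in 61.1% of 36 windows of 33 collagen genes and in 32.7% of all 32851 windows. TATAAA stood in 8.33% and 12.4%, and CCAAT in 33.3% and 33.8%. Some of the 36 windows overlap annotated exons, over all 250 bases for Col4a1, Col4a2, Col6a4 and Col20a1. The shares count matches of letters and no test was made of them.

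The other fibrillar genes gave small differences with wide errors. Col5a2, which lies 24614 bases from Col3a1 in tail-to-tail order, had 11.3 to 29.1 CPM and a log2 fold change of 0.08 (SE 0.21), beside -0.81 for its neighbour. Col24a1 varied 28.8-fold, from 0.412 CPM (14 counts) in Sham 5 to 11.9 CPM (258 counts) in Sham 1, with -0.12 (SE 0.58). Col27a1, Col5a3 and Col2a1, the chain of cartilage fibrils, had 0.01, 0.06 and 0.12. Over the 11 fibrillar genes 6 were positive and 5 negative, with a median of 0.01.

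**Figure D4:**
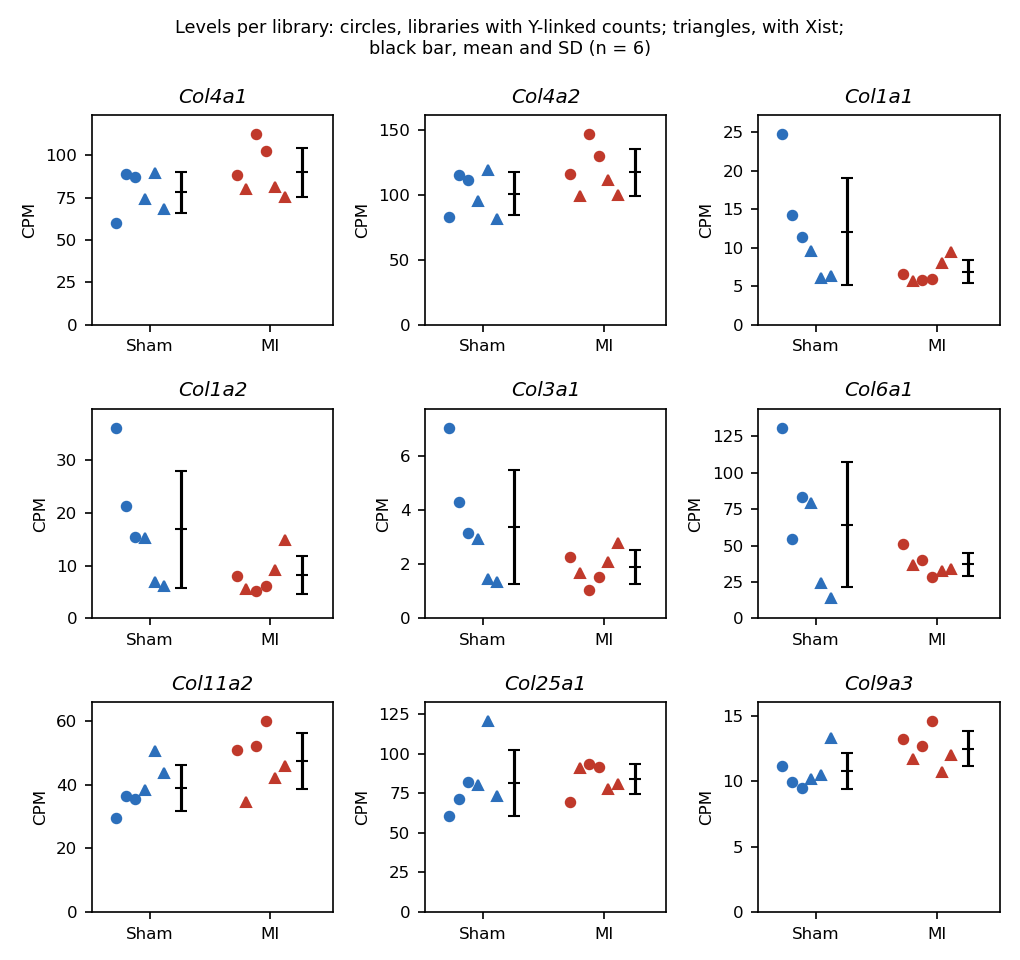
CPM per library (vertical axes, each from 0) of 9 collagen genes in Sham and MI (horizontal axes), with the mean and SD of 6 libraries as a black bar. Circles are the Y set and triangles the Xist set; Col1a2 reaches 36.2 CPM in Sham 1, while Col4a2 stays between 81.5 and 147 in all 12 libraries.

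Basement membranes supplied the most abundant collagen transcript per length, that of the widespread type IV chain Col4a2. Col4a2 (ENSMUSG00000031503, chromosome 8, 11312805 to 11449287) had 99.3, 114 and 147 CPM in MI and 81.5, 103 and 119 in Sham, lowest in Sham 6, with a log2 fold change of 0.22 (SE 0.12, edgeR adjusted p 0.719). Col4a1 (ENSMUSG00000031502, chromosome 8, 11198423 to 11312826) had 75.5, 84.7 and 112 CPM in MI and 60.2, 80.6 and 89.3 in Sham, lowest in Sham 1, with 0.20 (SE 0.12, edgeR adjusted p 0.731). The groups overlapped, with 4 of 6 MI libraries above the Sham median for each. Their mean levels per length were 16.5 and 11.3 RPKM, the first and the third of the 42 genes, and together they made up 27.1% of the summed collagen CPM (from 16.2% upwards by library). Endothelial markers had a median log2 fold change of 0.03 and summed levels of 320.9 to 361.2 CPM in MI and 304.1 to 376.0 in Sham.

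Col4a1 and Col4a2 lie head to head on opposite strands, and their annotated transcripts share 22 bases at the start, chr8:11312805-11312826 in both GENCODE M21 and RefSeq, shown because the pair was among the most closely matched in level. Capitals mark a GC box.
Col4a1 and Col4a2: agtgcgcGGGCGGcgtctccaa

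The ratio of Col4a2 to Col4a1 in CPM stayed between 1.19 and 1.38 over the 12 libraries. The other type IV chains were scarce in this tissue. Col4a5, on chromosome X and part of the network of kidney and muscle, had 5.22, 6.195 and 7.13 CPM in MI and 5.83, 6.79 and 8.30 in Sham, with -0.14 (SE 0.10), and Col4a6 beside it had -0.31 (SE 0.21). Col4a3 and Col4a4, the partner chains of the kidney filter, had 0.0637 and 0.112 RPKM and log2 fold changes of -0.40 (SE 0.22) and 0.08 (SE 0.14). Col4a3 rests on 7 to 26 counts per library and shares 5.65% of its exon bases with an antisense gene, C430014B12Rik.

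Types XV and XVIII anchor the basement membrane to the tissue around it. Col18a1 (ENSMUSG00000001435, chromosome 10, 77052178 to 77166548), the source of the fragment endostatin, had 3.87, 4.05 and 4.52 CPM in MI and 3.95, 5.24 and 6.13 in Sham. All 6 MI libraries lay below the Sham median and Sham 5 and Sham 6 within the MI range, giving a log2 fold change of -0.29 (SE 0.11, edgeR adjusted p 0.615, unadjusted p 0.0263). It was negative in both sets, -0.40 in the Y set and -0.16 in the Xist set, and -0.23 without Sham 1. Col15a1 had 0.06 (SE 0.17) and ranged from 3.68 CPM in Sham 5 to 8.76 in Sham 1. Of the 8 genes, 4 were positive and 4 negative, with a median of -0.04.

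Type VI chains, which form beaded filaments around cells, were all negative, with a median of -0.33 over 6 genes and none past the test. Col6a1 (ENSMUSG00000001119, chromosome 10, 76708792 to 76726168) had the second level per length of the collagens, 11.6 RPKM. It had 28.3, 35.2 and 51.3 CPM in MI and 13.9, 67.1 and 131 in Sham, so the Sham libraries covered the whole MI range from Sham 6 below to Sham 1 above, and its log2 fold change was -0.79 (SE 0.42, edgeR adjusted p 0.696). It was -0.46 without Sham 1, and -1.17 in the Y set and -0.19 in the Xist set. Col6a2, on the same strand 85161 bases away, had -0.38 (SE 0.34) and the same libraries at its ends, and Col6a3, the long chain of the trimer, had -0.28 (SE 0.20).

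Col6a4, Col6a5 and Col6a6, which can stand in for Col6a3 in the trimer, lie in a row on chromosome 9. Col6a4 split the libraries without regard to group: 0.886 CPM in MI 2 and 0.954 in Sham 4 (23 and 27 counts) against 21.4 in MI 4 and 21.7 in Sham 3 (517 and 459 counts), with a log2 fold change of -0.08 (SE 0.68), the widest error of the 42 genes. Col6a5 had 0.539, 0.913 and 2.57 CPM in MI and 0.611, 1.74 and 2.84 in Sham. Only MI 3, at 2.57, exceeded the Sham median, and the log2 fold change was -0.68 (SE 0.39, edgeR adjusted p 0.724, with -0.58 in the Y set and -0.85 in the Xist set). Col6a6 had -0.21 (SE 0.28).

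Fibril-associated collagens, which coat fibrils and carry side domains, were mixed, with 5 of 9 positive and a median of 0.02. Both collagen genes that were higher in MI at an unadjusted p under 0.05 belonged here, where 3.95% of all genes were. Col14a1 (ENSMUSG00000022371, chromosome 15, 55307750 to 55520803) had 2.47, 2.88 and 3.62 CPM in MI and 1.30, 2.30 and 2.83 in Sham, lowest in Sham 5. All 6 MI libraries exceeded the Sham median, and the log2 fold change was 0.41 (SE 0.17, edgeR adjusted p 0.623, unadjusted p 0.0278), with 0.29 in the Y set and 0.54 in the Xist set.

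Col9a3 (ENSMUSG00000027570, chromosome 2, 180597790 to 180622189), a chain of the cartilage fibril coat, had 10.7, 12.3 and 14.6 CPM in MI and 9.49, 10.3 and 13.4 in Sham. Again 6 of 6 MI libraries exceeded the Sham median, while Sham 6 at 13.4 CPM exceeded all but the highest of them, and the log2 fold change was 0.21 (SE 0.09, edgeR adjusted p 0.635, unadjusted p 0.0374). Its partner Col9a2 had -0.26 (SE 0.33) and Col9a1 0.03 (SE 0.27). Col9a3 shares 6.07% of its exon bases with Tcfl5 on the other strand, and the sources used here do not say if counting was by strand. The part of the myelin difference, or of any other marker list, in the Col9a3 value was not tested.

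Col19a1 (chromosome 1) had 29.8, 33.0 and 36.1 CPM in MI and 26.6, 31.3 and 38.5 in Sham, a log2 fold change of 0.02 (SE 0.08). Col16a1, Col12a1 and Col20a1 had -0.15, -0.36 and -0.16, and Col22a1 0.09. Col12a1 ran from 3.15 CPM in Sham 5 to 17.3 in Sham 1, and Col20a1 reached 15.9 CPM in Sham 6 and at most 11.2 in the other libraries.

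Of the transmembrane collagens, Col25a1 (ENSMUSG00000058897, chromosome 3, 130131501 to 130599877), a neuronal protein whose shed part binds amyloid, had the fourth level per length, 6.39 RPKM. It had 69.4, 85.8 and 93.2 CPM in MI and 60.4, 76.8 and 120 in Sham, with both ends in Sham, Sham 1 lowest and Sham 5 highest, and a log2 fold change of 0.04 (SE 0.14). CA1 pyramidal neuron markers had the same libraries at their ends, and their part in this was not tested. Col23a1 had 14.4, 20.1 and 31.4 CPM in MI, while Sham 1 to Sham 4 stood at 41.6 to 59.96 and Sham 5 and Sham 6 at 3.27 and 8.04. The MI libraries thus lay between the Sham libraries, with -0.79 (SE 0.56). Col13a1 had -0.58 (SE 0.33).

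The short-chain type VIII genes, whose products form hexagonal sheets under vascular and corneal endothelium, included the gene with the largest difference. Col8a2 (ENSMUSG00000056174, chromosome 4, 126286793 to 126314330) had 0.385, 0.772 and 2.23 CPM in MI and 0.517, 2.02 and 4.80 in Sham. Only MI 3 exceeded the Sham median, and the log2 fold change was -1.16 (SE 0.52, edgeR adjusted p 0.645, unadjusted p 0.0433) and -0.80 without Sham 1. Col8a1 had -0.71 (SE 0.40), Col28a1 -1.08 (SE 0.54), Col26a1 -0.36 (SE 0.29) and Col7a1 0.15 (SE 0.07). Sham 1 was highest and Sham 5 lowest for Col8a1, Col26a1 and Col28a1.

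In the Y set alone, 3 collagen genes passed the test, where 1.26% of 16777 genes did: Col11a2, higher in MI, and Col23a1 and Col8a1, lower in MI, where 0.656% of genes were. Col23a1 had -1.35 (edgeR adjusted p 0.0499) and Col8a1 -1.38 (0.0454). Below an unadjusted p of 0.05 by edgeR, in either direction, stood 18 of 42, beside 16.3% of all genes. Of these 18, 14 were lower, and the share of all genes lower at this threshold was not counted. In the Xist set, 0 of 42 passed at an adjusted and 0 at an unadjusted p under 0.05 by edgeR, beside 0.0% and 1.27% of all genes. The median log2 fold change of the 42 genes was -0.33 in the Y set and 0.08 in the Xist set, beside -0.0072 and -0.0046 over all genes. Opposite signs in the sets were found in 23 of 42, near the 50.4% of all genes tested in both. Each of these comparisons rests on 3 libraries a group. The Sham side was Sham 1 to Sham 3 in the Y set and Sham 4 to Sham 6 in the Xist set. Sham 4 exceeded every MI library for Col23a1 (41.6 against at most 31.4 CPM) and Col8a1 (1.63 against at most 1.48). Sham 5 and Sham 6 had 3.27 and 8.04 CPM for Col23a1 and 0.383 and 1.18 for Col8a1. The part of this split among the Sham libraries in the difference between the sets was not tested.

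Chains that share a trimer or fibril were compared over the 12 libraries in 12 pairs, with Benjamini-Hochberg adjustment of permutation p values over the pairs. Col1a1 and Col1a2 varied together in log2 CPM, with Pearson's r of 0.976 (p 1e-05, adjusted 3e-05) and Spearman's rho of 0.972 (p 1e-05). Without Sham 1 and Sham 2, r was 0.969. In every pair the 2 libraries left out were those farthest from the median of the first gene named. Col4a1 and Col4a2 had r of 0.971 (p 1e-05, adjusted 3e-05) and rho of 0.979 (p 1e-05), with 0.960 without MI 3 and Sham 1. Col6a1 and Col6a2 had r of 0.965 (p 1e-05, adjusted 3e-05) and rho of 0.972 (p 2e-05), with 0.940 without Sham 1 and Sham 6. A p of 1e-05 is the smallest that 100000 permutations can give.

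These 3 pairs held within each set of 6 libraries, with r of 0.990, 0.995 and 0.988 in the Y set (exact permutation, adjusted p 0.00833 for each) and 0.980, 0.955 and 0.937 in the Xist set (exact permutation, adjusted p 0.0250, 0.0278 and 0.0167). Col1a1 and Col3a1 had r of 0.956 (permutation p 1e-05, adjusted 3e-05) and rho of 0.895 (p 0.0002), with 0.889 without Sham 1 and Sham 2, and 0.959 and 0.928 in the sets, where the latter did not pass (exact permutation, adjusted p 0.0625). The points share library depth and tissue makeup.

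Col4a5 and Col4a6 had r of 0.703 (permutation p 0.0131, adjusted 0.0314) and rho of 0.580 (p 0.0528, adjusted 0.106). Col11a1 and Col11a2 had 0.641 (permutation p 0.0256, adjusted 0.0438) and 0.503 (p 0.0976, adjusted 0.146). Col8a1 and Col8a2 had 0.638 (permutation p 0.0253, adjusted 0.0438) and 0.601 (p 0.0437, adjusted 0.105). By rho none of these pairs passed after adjustment. Without the 2 outermost libraries r was 0.345 and 0.393 for the first pairs, with adjusted permutation p of 0.351 and 0.313, so that these relations rest on MI 3 and Sham 1 and on MI 4 and Sham 5. For type VIII it was 0.661 without Sham 1 and Sham 5, and no longer passed (adjusted permutation p 0.0747). Col6a1 and Col6a3 had r of 0.611 (permutation p 0.0343, adjusted 0.0514) and rho of 0.559 (p 0.0626). Without Sham 1 and Sham 6, the outermost libraries of Col6a1, r was 0.601.

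The remaining pairs did not pass over 12 libraries. Col5a1 and Col5a2 had r of 0.1103 (permutation p 0.738; rho 0.259, p 0.420) although their products share a trimer, and 0.565 without Sham 1 and Sham 5. Col9a2 and Col9a3 had -0.246 (p 0.444; rho -0.378, p 0.226), and -0.576 without Sham 1 and Sham 5. Col9a1 and Col9a2 had 0.446 (p 0.148; rho 0.378, p 0.227), and 0.692 without MI 4 and Sham 6 (adjusted permutation p 0.0499). Col4a3 and Col4a4, whose starts lie 71 bases apart, had 0.206 (p 0.526; rho 0.203, p 0.528), and 0.126 without MI 1 and Sham 3; both have few counts.

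**Figure D5:**
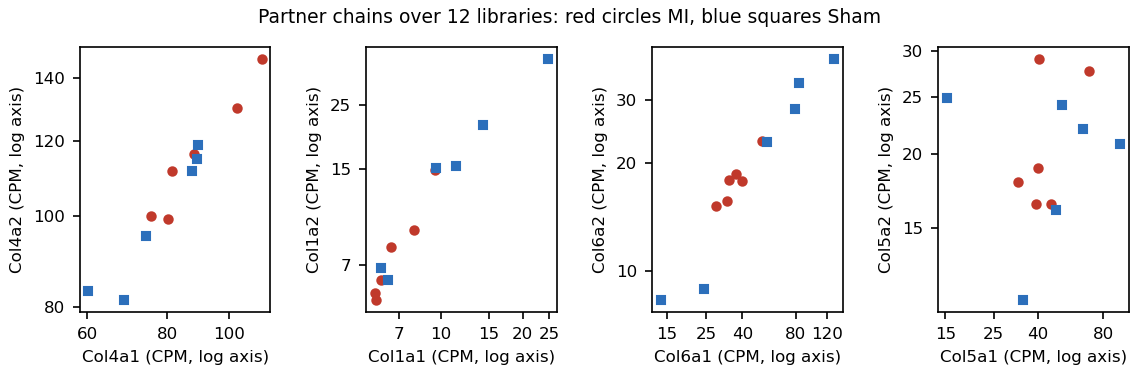
CPM of 4 pairs of partner chains in the 12 libraries (both axes logarithmic, MI as red circles and Sham as blue squares). Col4a1 and Col4a2, Col1a1 and Col1a2, and Col6a1 and Col6a2 lie along a line (r 0.971, 0.976 and 0.965), and Col5a1 and Col5a2 do not (r 0.1103).

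The genes that make, bind and cut collagen were called in 0 cases among all lists. Of 20 hydroxylases and chaperones that fold and modify the chains, 9 were positive and 11 negative, with a median of -0.01 and 0 at an unadjusted p under 0.05. Their smallest p belonged to Colgalt2, a collagen galactosyltransferase (0.14, SE 0.08), Mia2, which helps load collagen for export (0.06, SE 0.04), and Serpinh1, the collagen chaperone Hsp47 (-0.16, SE 0.11). Their summed level was 579.0 to 594.2 CPM in MI and 571.2 to 604.6 in Sham. Of 11 tested proteinases and crosslinking enzymes of procollagen 3 were positive and 8 negative, with a median of -0.11. Tll2, a proteinase of the Bmp1 family, had 0.68 (SE 0.24), Adamts3, a procollagen N-proteinase, -0.34 (SE 0.14), and Lox, the crosslinking oxidase, -1.02 (SE 0.51).

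Of 9 tested collagen receptors 3 were positive and 6 negative, with a median of -0.04. Mrc2, which takes up collagen for degradation, averaged 5.39 CPM over the 6 MI libraries (SD 1.43) and 9.01 over the 6 Sham libraries (SD 3.97), with a log2 fold change of -0.73 (SE 0.27), and the receptor kinases Ddr2 and Ddr1 had -0.35 (SE 0.14) and 0.19 (SE 0.07). Ddr2 is a receptor for fibrillar collagen in fibroblasts, while Ddr1 is also made by oligodendrocytes. In the Xist set Mrc2 and Ddr1 each had -0.01 and Ddr2 -0.0034. Among 11 tested genes of collagen degradation, 7 were negative with a median of -0.15; Ctsk, a collagen-cutting cathepsin, had -0.43 (SE 0.15), Mmp15, a membrane metalloproteinase, -0.16 (SE 0.07), and Timp1, a metalloproteinase inhibitor, -0.49 (SE 0.24).

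Laminins and other basement membrane partners were negative in 13 of 16, with a median of -0.09; Lama1, a laminin chain of the pial basement membrane, had -0.45 (SE 0.17), Nid1, which links laminin to type IV collagen, -0.27 (SE 0.12), and Lama5 0.13 (SE 0.08). All 8 tested leucine-rich proteoglycans that bind fibrils were negative, with a median of -0.38; Bgn had -0.30 (SE 0.10), Ogn -1.51 (SE 0.60) and Fmod -1.73 (SE 0.84), and the latter pair also stand in the meningeal list. The mean deviation of the proteoglycans in MI less that in Sham came to -1.26 in the Y set and 0.27 in the Xist set, with Ogn at -3.16 and 0.21 and Fmod at -3.58 and 0.68. Genes of TGF-beta signalling, an inducer of collagen synthesis, had a median of -0.06, with Smad7 at 0.23 (SE 0.12), Smad3 at -0.20 (SE 0.11) and Smad2 at -0.11 (SE 0.07).

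In the authors' deposited tables stand 542 genes higher and 517 genes lower after MI. Of the 42 collagen genes 3 are among them, beside 6.09% of the genes tested. Col9a3 has, in the authors' deposited table for the higher direction, a log2 fold change of 0.17 (adjusted p 0.0254) and Col14a1 0.24 (0.0298), with the sign found from the counts. Col6a5 has, in the authors' deposited table for the lower direction, -0.35 (0.0126). In the authors' deposited table its log2 expression values are 6.66 to 7.11 in MI and 7.22 to 7.39 in Sham and do not overlap, whereas the counts, 38.7 on average, gave overlapping CPM with MI 3 at 2.57. No method for the deposited values is stated in the sources used here. None of Col1a1, Col1a2, Col8a2 and Col18a1, the 4 genes lower in MI at an unadjusted p under 0.05 (3.59% of all genes), is in the authors' deposited tables.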

How the data were processed

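Polyadenylated RNA of dissected CA1 tissue was read from 1 end over 50 bases (labels' protocols). The submitters' processing notes name mm10, Subread 1.5.1, featureCounts, STAR 2.5.2b and FastQC 0.11.5 with no order or setting. The authors deposited raw counts of reads for each Ensembl gene ID. The authors' deposited tables also hold log2 fold changes, adjusted p-values and log2 expression per library, with no method given in the sources used here.

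Symbols, positions and exon lengths came from GENCODE M21 (48349 of 48709 IDs matched). Genes passing filterByExpr (16829, among them all 42 collagens) were scaled by TMM and tested two-sided with the quasi-likelihood method of edgeR 4.0.16 under R 4.3.3, with Benjamini-Hochberg adjustment over all genes tested and a threshold of 0.05. CPM use the same scaling, log2 CPM a prior count of 2, and RPKM the exon-union length. The SE is the log2 fold change divided by the root of F. The interaction of group and sex-linked set (Ddx3y, Uty, Kdm5d and Eif2s3y counts above or below Xist) used the same model. The procedure was tested on simulated counts. Alternatives were DESeq2 1.42.0, limma-voom (limma 3.58.1), other scalings and filters, a replicate block, the set as covariate, each set alone and leaving out libraries. No pair of libraries in a group was a duplicate (chi-square per degree of freedom 6.22 to 78.2).

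The lowest, median and highest library of each group are given for the 3 collagens with the most counts in each class, those at an unadjusted p under 0.05 and those in the authors' tables. Of each further list the 3 genes with the smallest p are named by their log2 fold change. Other values of single libraries were chosen after they were seen. Marker lists other than the meningeal are given by sums, medians and, for some, counts of signs or of highest levels. Dcn was kept out of the marker lists, and 1 marker was matched through another symbol (Nov as Ccn3). The members and lists were chosen with earlier results of these data known. Depth limits genes such as Col4a3 and Col9a1 to about 16 counts a library.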

Additional observations from a re-analysis of the deposited data

Results flagged for a closer look

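In 5 of 84 sets of 6 libraries, 1 library stood far from the others of its group in log2 CPM, where chance alone marks about 1 in 20. Col11a1 had 48.5 CPM in Sham 5, against 15.7 to 22.0 in the other Sham libraries. Col13a1 had 0.442 CPM in Sham 5, against 1.27 to 2.17. Col20a1 had 15.9 CPM in Sham 6, against 9.54 to 11.2. Col27a1 had 12.3 CPM in MI 1, against 8.16 to 9.49 in the other MI libraries, and Col2a1 had 1.78 CPM in MI 4, against 2.73 to 3.51.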

How the results depend on the processing

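No gene and no collagen gene was called with other scalings, other filters, limma-voom, the set as covariate, the replicate block (0 and 0), any 1 library left out, the Xist set alone, or Sham 1 and Sham 6 both left out, the last chosen after seeing the data. DESeq2 called 10 genes and 0 collagens, and the Y set alone 211 and 3; the cause was not tested. Same-numbered libraries of MI and Sham deviated together in 3 of 6 pairs (r over 0.1), with 0.405, 0.197 and 0.183 for numbers 1, 3 and 6. For numbers 2, 4 and 5 r was negative, at -0.350, -0.319 and -0.124. In pairs 1, 3 and 6 the same-numbered Sham library was also the best match among the Sham libraries. Whether the number pairs them cannot be told from this, and the main fit took them as unpaired. The median of the basement membrane collagens was 0.055 with at least 50 counts in at least 6 libraries, which leaves fewer genes, and -0.17 in the Y set. That of the other collagens was 0.025 in the Xist set. Leaving out 1 library gave medians of -0.08 to 0.09 for fibrillar, -0.11 to -0.02 for basement membrane and -0.41 to -0.18 for other collagens. By Pearson's r, 7 of the partner pairs passed over 12 libraries, 4 in the Y set and 3 in the Xist set, each of which has fewer samples. Of the 7, Col4a5 with Col4a6, Col11a1 with Col11a2 and Col8a1 with Col8a2 did not pass by adjusted rho.

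Of 452 gene results under 11 alternatives, 415 kept their sign and side, 3 newly passed and 34 changed sign, none of the 34 past the threshold. In the Xist set the sign changed for correlation of Col5a1 and Col5a2 (-0.285), Col11a1 (-0.21), Col11a2 (-0.11), Col16a1 (0.19), Col1a1 (0.078), Col1a2 (0.081), Col22a1 (-0.23), Col23a1 (0.24), Col24a1 (0.31), Col25a1 (-0.13), Col26a1 (0.33), Col28a1 (0.18), Col3a1 (0.19), Col5a1 (0.22), Col5a2 (-0.26), Col6a2 (0.20), Col6a6 (0.27), Col8a1 (0.29) and Col9a2 (0.37). It changed sign in the Y set for Col15a1 (-0.074), Col27a1 (-0.072), Col5a3 (-0.045), Col6a4 (0.072) and Col9a1 (-0.016). It changed sign in limma-voom for Col19a1 (-0.058), Col27a1 (-0.085), Col5a2 (-0.076) and Col9a1 (-0.068). It changed sign with the replicate block for Col24a1 (0.047). It changed sign without Sham 1 and Sham 6 for Col19a1 (-0.047), Col24a1 (0.27), Col25a1 (-0.081), Col27a1 (-0.013), Col5a2 (-0.055) and Col9a1 (-0.051). With 1 library left out, 11 genes crossed 0: Col15a1 (-0.039 to 0.24), Col19a1 (-0.029 to 0.078), Col22a1 (-0.0086 to 0.20), Col24a1 (-0.45 to 0.37), Col25a1 (-0.030 to 0.19), Col27a1 (-0.077 to 0.071), Col5a1 (-0.41 to 0.053), Col5a2 (-0.042 to 0.15), Col5a3 (-0.023 to 0.18), Col6a4 (-0.42 to 0.21) and Col9a1 (-0.12 to 0.15).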
